A study of Sus scrofa with 6 samples.

Results

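Mitochondria turn pyruvate, fatty acids and amino acids into acetyl-CoA, pass the electrons that this yields along the respiratory chain, and make ATP from the resulting proton gradient. Most of the proteins involved are encoded in the nucleus, made in the cytosol and imported. Glucose reaches this system as pyruvate, and enzymes that make, move or spend phosphorylated glucose set how much of it is stored, released or burned. Embryos soon after implantation rely strongly on glycolysis, and oxidative metabolism grows as organs such as liver, heart and kidney form.

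The genes described here were 10 nuclear genes of this system, on chromosome 9 of the pig: ACAT1, DLAT, PDK4, NDUFC2, SDHD, NDUFA4, TIMM8B, FDX1, SLC37A4 and PGM2L1. They were chosen by symbol from a list of ketone and pyruvate enzymes, respiratory chain subunits, mitochondrial import and glucose phosphate genes, and kept if they had at least 10 counts in total. All 10 passed that limit, of 1780 genes in the count table. Of these, 779 had a symbol, and 686 matched a RefSeq position on chromosome 9 by symbol. The table includes genes without reads, as 1314 of the 1780 had any. A gene absent from the table was therefore not measured, and its absence says nothing of its expression. The member with the fewest reads, PDK4, had 1702 counts over the 6 libraries, so none lay near the limit. The list was drawn up with earlier results of the same comparison known, so how many of its genes passed the test is a description of these genes and no support for any wider statement.

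RNA was sequenced from 6 whole embryos of the Landrace x Yorkshire x Duroc (LYD) cross, all at embryonic day 21. Controls (n = 3) were labelled untreated, and their columns in the count table are named AI-F1 to AI-F3, a name that the labels do not explain. How they were conceived is not described in the labels. The parthenotes (n = 3) grew from oocytes activated with electric pulses, without sperm, after transfer to the oviducts of 2 LYD surrogate gilts. The labels do not tie embryos to dams, so the tests reflect only the variation among these 6 embryos, which may include littermates. Differences in dam, handling or stage between the groups and the missing paternal genome cannot be told apart. The paternally expressed gene PEG10, a check of the labels, had 25305, 32101 and 34078 CPM in the controls and 27.5, 23.4 and 10.1 CPM in the parthenotes. CPM here are counts per 1000000 of the reads counted in the chromosome 9 genes, scaled between libraries. The libraries held 1193714 to 1484193 such reads, and a count of 3 came to 2.02 to 2.51 per 1000000 reads before scaling. Libraries numbered 1 stood apart: the chi-square per degree of freedom against the others of their group was 141 and 143 for control 1 and 61.0 and 52.8 for parthenote 1, and 6.98 and 21.1 between the others. These values were taken on raw counts. The most abundant gene, which has no symbol, held 20.8% of the reads of control 1, against 8.29% and 8.47% in control 2 and 3. In parthenote 1, 2 and 3 it held 19.1%, 15.4% and 18.0%. Its part in the chi-square was not tested. In whole embryos, fewer cells of a type and less RNA per cell cannot be told apart.

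Of the 10 genes, 4 fell in parthenotes (DLAT, NDUFC2, NDUFA4 and SLC37A4), 1 rose (PGM2L1) and 5 did not pass the test (ACAT1, SDHD, TIMM8B, FDX1 and PDK4). In log2 fold change, parthenote against control, 8 lay below 0 and 2 above, from -0.84 for NDUFA4 to 0.47 for PGM2L1, with a median of -0.51. The same median over the 807 genes tested was 0.02, and 47.6% of those lay below 0. A gene passed where its adjusted p (edgeR, quasi-likelihood, Benjamini-Hochberg) was under 0.05, as 5.2% of the 807 did, 3.59% lower and 1.61% higher. An unadjusted p under 0.05 was reached by 8 of the 10, where 21.7% of all tested genes reached it. Together the 10 genes took 1.43%, 1.42% and 1.34% of the counted reads in the controls and 1.08%, 0.939% and 0.921% in the parthenotes. Every parthenote lay below every control in 6 of the 10 genes and above in 2, where this held for 14.3% and 13.8% of all tested genes. TIMM8B and FDX1 were the members whose groups overlapped.

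**Figure D1:**
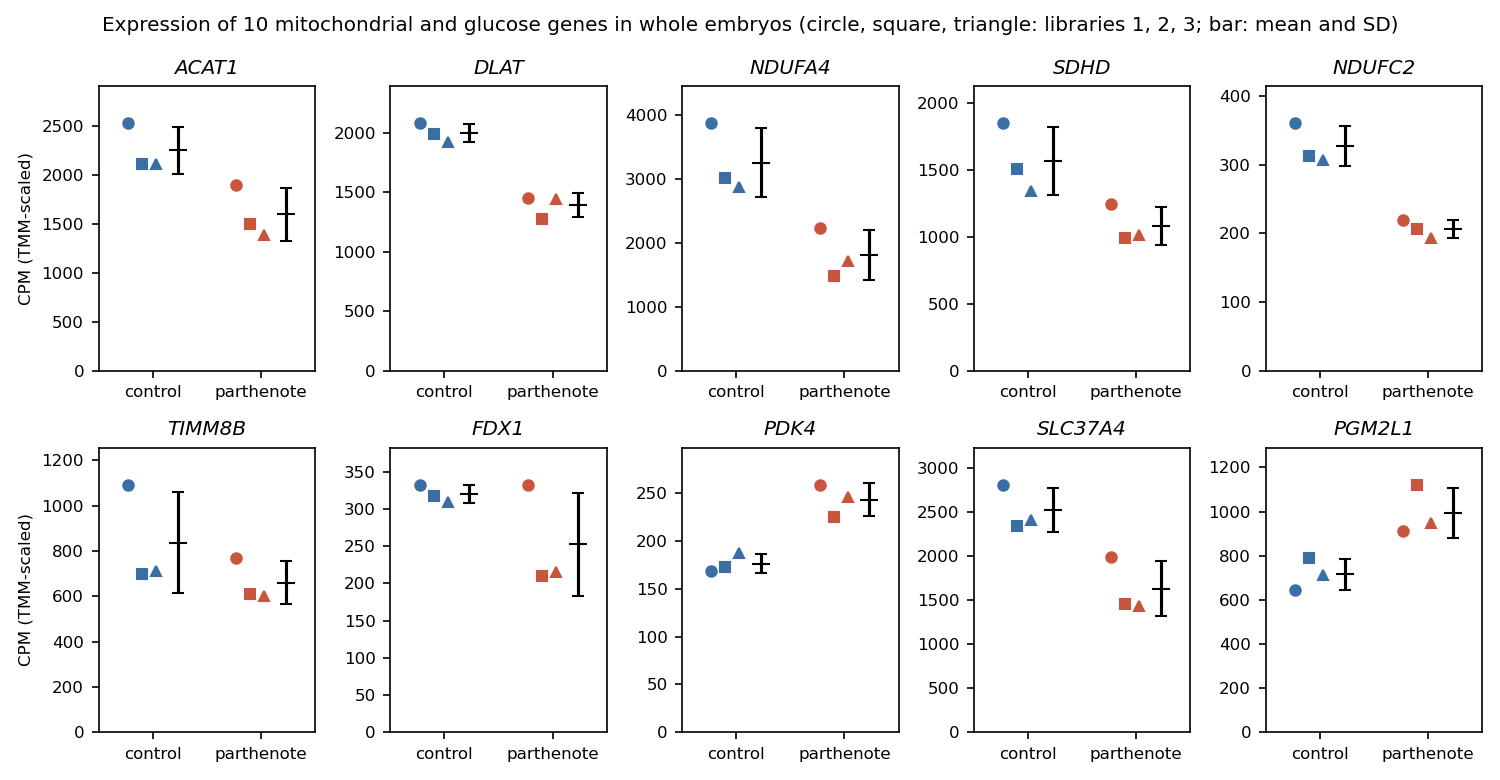
Scaled CPM (vertical axes, each from 0) of the 10 genes in 3 controls (blue) and 3 parthenotes (red), where circles, squares and triangles are libraries 1, 2 and 3 of a group and bars give the mean and SD. Groups are apart for every gene but TIMM8B and FDX1, and PDK4 and PGM2L1 are the genes with higher values in parthenotes.

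Entry of pyruvate was represented by an enzyme and the kinase that restrains it. DLAT (ENSSSCG00000015030) encodes the E2 core of the pyruvate dehydrogenase complex, the lipoyl-carrying subunit that transfers the acetyl group to coenzyme A. It lies on chromosome 9 at 39738639 to 39763813 of Sscrofa11.1. DLAT had 2079.5, 1984 and 1925 CPM in control 1, 2 and 3 and 1454, 1276 and 1441 CPM in parthenote 1, 2 and 3. The groups did not overlap, and the SD was 78.1 CPM in controls and 99.3 CPM in parthenotes. DLAT fell by 30.3%, a log2 fold change of -0.52 ± 0.09 (SE) with a 95% interval of -0.72 to -0.33 (adjusted p = 0.00900). The call was lost without control 2 (adjusted p = 0.0521) and held in the other 5 fits with a library left out.

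PDK4 (ENSSSCG00000015334) encodes a kinase that phosphorylates and switches off the complex, and is known as a gene induced by fasting. Its values were 169, 173 and 187 CPM in the controls and 258, 225 and 246 CPM in the parthenotes. All parthenotes were above all controls, and the highest was parthenote 1. The log2 fold change was 0.46 ± 0.12 with an interval of 0.18 to 0.74, which did not pass (adjusted p = 0.0698). In RefSeq the whole span of PDK4, at 75246956 to 75260134, lies inside that of ASB4, and the library kit does not mark strand, so the reads of the 2 genes are uncertain. ASB4 had a log2 fold change of -0.43 ± 0.22. PEG10 and SGCE, the called genes within 1 Mb of PDK4, were both lower in parthenotes.

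The proportion of the 2 genes can be read within each library. Per 100 reads of DLAT there were 8.11, 8.70 and 9.73 reads of PDK4 in the controls and 17.8, 17.6 and 17.0 in the parthenotes, or 8.85 ± 0.82 against 17.5 ± 0.38 (SD, n = 3 each). This ratio needs no scaling between libraries, and it does not compare the abundance of the 2 transcripts, whose lengths were not used. The parthenote mean was 1.98 times the control mean. The pair was chosen after its values were seen, so no test is given.

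ACAT1 (ENSSSCG00000026153) encodes the mitochondrial acetoacetyl-CoA thiolase, which splits or forms acetoacetyl-CoA in ketone body and isoleucine metabolism. It lies at 36525266 to 36545634. ACAT1 had 2529, 2115 and 2116 CPM in the controls, against 1899, 1501 and 1391 CPM in the parthenotes. Every control was above every parthenote, and number 1 was the highest of both groups. The log2 fold change was -0.50 ± 0.13 with an interval of -0.79 to -0.20, and the adjusted p was 0.0652. ACAT1 passed in DESeq2 (adjusted p = 0.0148). In edgeR it passed without a filter on low counts (0.0206) and without both libraries numbered 1 (0.00797), a setting chosen after seeing the data. It also passed without parthenote 1 (0.0176), with library totals as the only scaling (0.0400) and with the replicate number as a block (0.010). The labels give no such pairs, so the block, here and below, is a pairing taken from these data.

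The respiratory chain was represented by a gene each of complexes I, II and IV. NDUFC2 (ENSSSCG00000039494) encodes an accessory subunit in the membrane arm of complex I, which takes electrons from NADH, and lies at 12486488 to 12492507. The 3 controls had 360.1, 313 and 307 CPM, the 3 parthenotes 219, 206 and 194 CPM. The parthenotes spanned a narrow range, with an SD of 12.8 CPM, well below the controls. NDUFC2 fell by 36.8%, a log2 fold change of -0.66 ± 0.12 with an interval of -0.94 to -0.38 (adjusted p = 0.0178). The call held when control 1 or parthenote 1 was left out. Leaving out any of the other 4 libraries (control 2, control 3, parthenote 2, parthenote 3) gave adjusted p values of 0.0505 to 0.0765.

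SDHD (ENSSSCG00000015034) encodes the small membrane anchor of succinate dehydrogenase, the enzyme shared by the citrate cycle and the chain as complex II. Its values were 1851, 1508 and 1348 CPM in controls and 1245, 990.3 and 1012 CPM in parthenotes. The groups did not overlap, and control 1 was well above the other controls. The log2 fold change was -0.54 ± 0.14 with an interval of -0.84 to -0.23 (adjusted p = 0.0600). Like ACAT1, it passed with the replicate number as a block (adjusted p = 0.00691), with library totals as scaling (0.0298) and without parthenote 1 (0.0316). SDHD also passed in DESeq2 (0.0122), and in edgeR without a filter on low counts (0.0195) and without both libraries numbered 1 (0.0244).

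NDUFA4 (ENSSSCG00000024313), named as a complex I subunit and now assigned to cytochrome c oxidase, complex IV, had the largest difference of the 10 genes. The 3 controls had 3868, 3015 and 2871 CPM, the 3 parthenotes 2233, 1482 and 1717 CPM. The groups were apart, and both libraries numbered 1 were the highest of their group. NDUFA4 fell by 44.3%, a log2 fold change of -0.84 ± 0.17 with an interval of -1.23 to -0.46 (adjusted p = 0.0242). It passed without parthenote 1 (adjusted p = 0.00837) and in no other fit with a library left out (0.0505 to 0.0907). RefSeq has a pseudogene of the same symbol on another chromosome, so some of its reads may be placed wrongly.

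Per 100 NDUFA4 reads there were 9.31, 10.4 and 10.7 reads of NDUFC2 in controls and 9.83, 13.9 and 11.3 in parthenotes. These values overlapped between the groups, with parthenote 2 the highest and control 1 the lowest.

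TIMM8B (ENSSSCG00000023599) encodes a small chaperone of the space between the mitochondrial membranes, which escorts imported hydrophobic proteins to the inner membrane. The 3 controls had 1092, 699.9 and 714 CPM, the 3 parthenotes 769, 610.4 and 601 CPM. Parthenote 1 lay above control 2 and control 3, so the groups overlapped. The log2 fold change was -0.34 ± 0.19 with an interval of -0.77 to 0.09 (adjusted p = 0.347). Without control 1, the highest library, it was -0.10 (adjusted p = 0.681).

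TIMM8B and SDHD are direct neighbours. TIMM8B spans 39788164 to 39790563 and SDHD 39790654 to 39803602, with 90 bp between them. C9H11orf57, 201 bp beyond TIMM8B, was not tested under that symbol. There were 59.0, 46.4 and 52.9 TIMM8B reads per 100 SDHD reads in controls and 61.8, 61.6 and 59.4 in parthenotes. The parthenotes were all slightly above the highest control, at 60.9 ± 1.35 against 52.8 ± 6.30 (SD, n = 3 each). The proportion of these neighbours was likewise looked at after their values were seen.

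FDX1 (ENSSSCG00000035945) encodes the mitochondrial ferredoxin that hands electrons to the steroid-making cytochromes P450 and is needed for attaching lipoate to enzymes such as DLAT. The 3 controls had 333, 318 and 309 CPM, the 3 parthenotes 333, 209.8 and 216 CPM. Parthenote 1 was level with the highest control, and parthenote 2 and 3 were far below all controls. The log2 fold change was -0.34 ± 0.18 with an interval of -0.75 to 0.07 (adjusted p = 0.328). Without parthenote 1 it was -0.59 and passed (adjusted p = 0.0316), so whether FDX1 passed depended on this library. The RefSeq span of FDX1, at 38376147 to 38399026, overlaps that of a long non-coding RNA gene by 1242 bp.

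SLC37A4 (ENSSSCG00000015105) encodes the transporter that carries glucose 6-phosphate into the endoplasmic reticulum, where it is cleaved to release free glucose from liver and kidney. It lies at 46247278 to 46254068. Its values were 2811, 2347 and 2412 CPM in controls and 1988, 1462 and 1433 CPM in parthenotes. All parthenotes were below all controls, with parthenote 1 above parthenote 2 and 3. SLC37A4 fell by 35.5%, a log2 fold change of -0.63 ± 0.14 with an interval of -0.95 to -0.32 (adjusted p = 0.0321). It passed without parthenote 1 (adjusted p = 0.00519) and in no other fit with a library left out (0.0724 to 0.147).

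PGM2L1 (ENSSSCG00000014838) encodes the synthase of glucose 1,6-bisphosphate, a cofactor of sugar phosphate mutases that is abundant in brain. The 3 controls had 645, 789 and 712 CPM, the 3 parthenotes 912, 1122 and 949 CPM. The groups did not overlap, and control 1 was the lowest of all libraries. PGM2L1 rose 1.39-fold, a log2 fold change of 0.47 ± 0.11 with an interval of 0.22 to 0.73 (adjusted p = 0.0475). It passed without parthenote 1 (adjusted p = 0.0440) and in no other fit with a library left out (0.0742 to 0.157). It did not pass with library totals (adjusted p = 0.209), DESeq2's size factors (0.0501) or upper-quartile factors (0.0551) as scaling, or in limma-voom (0.0528).

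Per 100 reads of SLC37A4 there were 23.0, 33.6 and 29.5 reads of PGM2L1 in controls and 45.9, 76.8 and 66.2 in parthenotes. The parthenote mean of 63.0 ± 15.7 was 2.19 times the control mean of 28.7 ± 5.38 (SD, n = 3 each). The lowest parthenote was above the highest control, and this ratio too was chosen after its values were seen.

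**Figure D2:**
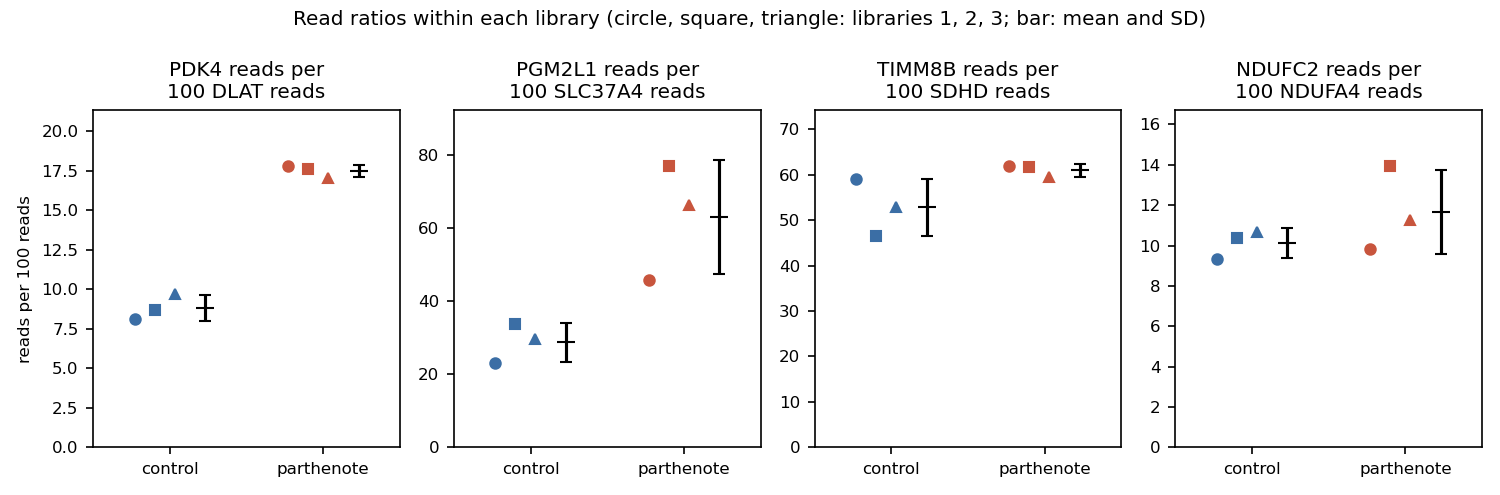
Reads of a gene per 100 reads of another in the same library, for 4 pairs, in controls (blue) and parthenotes (red), with symbols for libraries 1, 2 and 3, bars for the mean and SD, and axes from 0. PDK4 against DLAT and PGM2L1 against SLC37A4 are higher in all parthenotes than in all controls, while NDUFC2 against NDUFA4 overlaps between groups.

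The members shared a pattern among libraries of a group. For the 8 genes below 0, control 1 was the highest control in 8 of 8 and parthenote 1 the highest parthenote in 8 of 8. Over all 807 tested genes both held together in 18.2%, control 1 was the highest control in 39.4% and parthenote 1 the highest parthenote in 34.6%. Within groups, the coefficient of variation ran from 3.75% for FDX1 to 26.7% for TIMM8B in controls and from 6.22% for NDUFC2 to 27.4% for FDX1 in parthenotes. The medians over the 585 tested genes with at least 100 CPM were 9.01% and 8.56%. Without both libraries numbered 1, a setting chosen after seeing the data, 7 of the 10 genes passed, where 9.42% of all genes did. Here the log2 fold changes ran from -0.88 for NDUFA4 to 0.46 for PGM2L1, whose call was lost (adjusted p = 0.0546). With the replicate number as a block 7 passed, where 6.82% of all genes did, and 8 passed in DESeq2, where 8.05% of all genes did.

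Of other genes of mitochondria and glucose metabolism, 696 were listed, 26 were in the count table and 24 were tested. The listed genes absent from the table were not measured. In edgeR's test 0 of the 24 passed, where 5.2% of all tested genes did. An unadjusted p under 0.05 was reached by 5 of the 24, where 21.7% of all tested genes reached it. In DESeq2 3 passed, where 8.05% of all tested genes did. In log2 fold change 17 lay below 0 and 7 above, with a median of -0.12. The largest differences were those of SLC25A13 and DLD, at -0.43 and -0.42, and the highest value was 0.18 for REXO2.

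DLD encodes the E3 subunit of the pyruvate dehydrogenase complex, the partner of DLAT that reoxidises its lipoyl groups, and it also serves the related 2-oxoacid complexes. The 3 controls had 3341, 3017 and 2871 CPM, the 3 parthenotes 2527, 2047 and 2309 CPM, with no overlap. Its log2 fold change was -0.42 ± 0.11 with an interval of -0.67 to -0.17 (adjusted p = 0.0649), and it passed with the replicate number as a block (0.0290). Per 100 reads of DLD there were 65.0 ± 2.48 reads of DLAT in controls and 60.8 ± 2.77 in parthenotes (SD, n = 3 each), and the ranges of the groups overlapped. LIPT2, which starts lipoate attachment, was the other tested gene of the pyruvate, citrate cycle and ketone list, at -0.36 ± 0.21. ME3, a malic enzyme gene of the same list, had 1 count over all libraries.

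SLC25A13, the aspartate-glutamate carrier citrin, had 2485, 2163 and 2152 CPM in the controls, against 1991, 1406 and 1661 CPM in the parthenotes. The log2 fold change was -0.43 ± 0.13 (adjusted p = 0.108, and 0.0290 with the replicate number as a block). The other tested carriers, SLC25A40 and the uncoupling protein UCP2, were at -0.19 ± 0.13 and 0.06 ± 0.14, and UCP3 had only 11 counts. PFKFB2, which sets the level of the glycolytic activator fructose 2,6-bisphosphate, was at 534, 581 and 572 CPM in the controls, against 439, 374 and 469 CPM in the parthenotes, or -0.40 ± 0.12 with an interval of -0.66 to -0.13, and did not pass. SLC37A2, a relative of SLC37A4, was at -0.19 ± 0.18 with overlapping groups.

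Of other respiratory chain genes 4 were tested, all assembly factors. In edgeR 0 passed, and 0 had an unadjusted p under 0.05. FOXRED1, the one with the most reads, was at 0.03 ± 0.25, with 465 to 558 CPM in controls and 384 to 776 CPM in parthenotes. TMEM126A and TMEM126B were at -0.32 ± 0.21 and -0.21 ± 0.12, and COA4 at 0.14 ± 0.15. The 4 import and protease genes ran from -0.29 ± 0.11 for PMPCB, the processing peptidase that cuts off import signals (adjusted p = 0.177), to 0.07 ± 0.17 for TOMM7, a subunit of the outer membrane pore. The 8 genes of the mitochondrial ribosome and gene expression ran from -0.29 for MRPS14 to 0.18 for REXO2, with a median of -0.09. MRPL17, the most abundant of them in reads, was at 1478 ± 198 CPM in the controls, against 1357 ± 145 CPM in the parthenotes (SD, n = 3 each), a difference smaller than the spread. Of the 32 listed regulators of mitochondrial genes, 0 were in the count table, so this list was not measured. The genes of the mitochondrial genome were not analysed here.

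**Figure D3:**
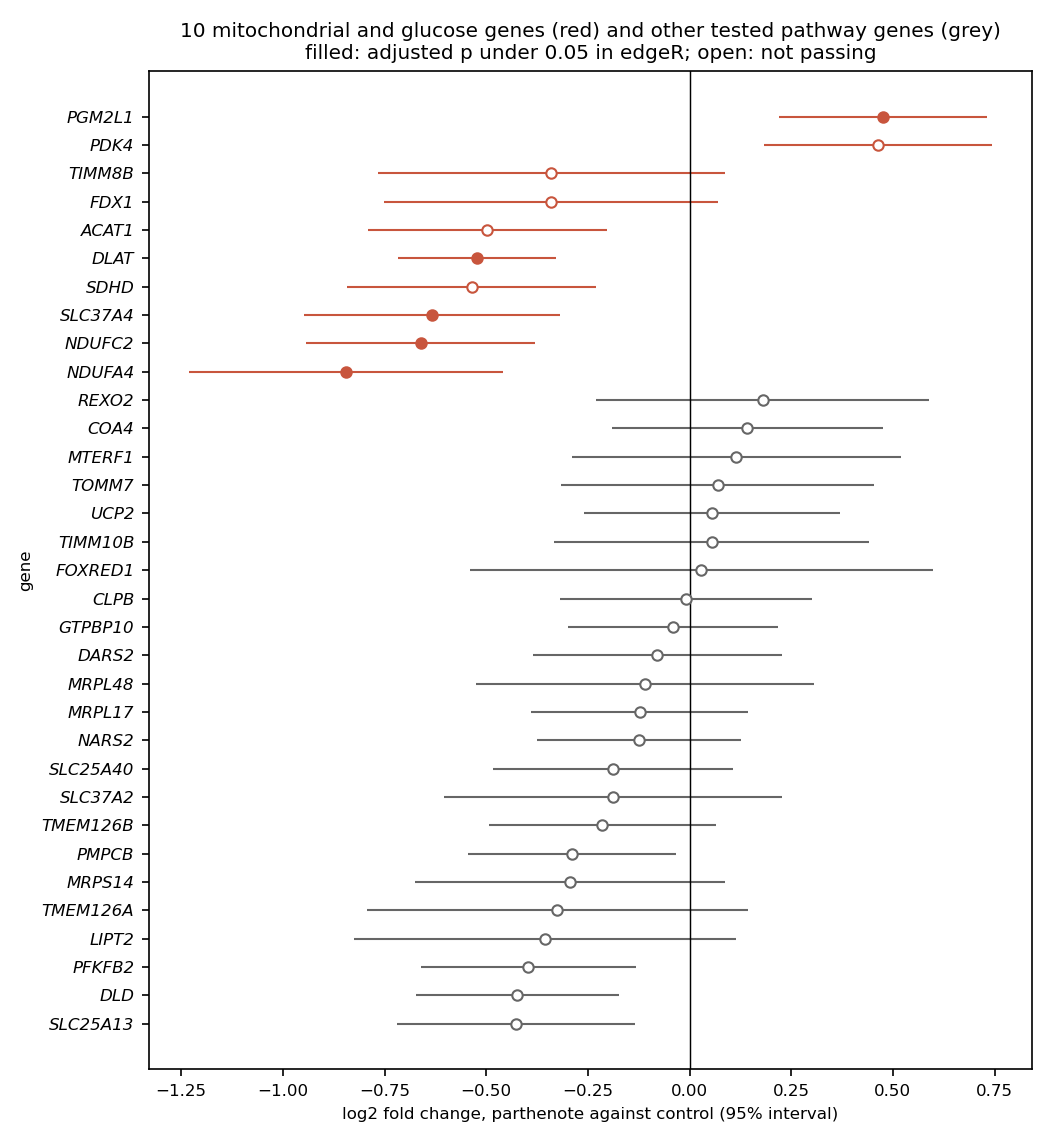
Log2 fold change of parthenotes against controls (horizontal axis, bars are 95% intervals) for the 10 genes (red) and 23 other tested genes of mitochondria and glucose metabolism (grey), with filled points for genes that passed edgeR's test. All 5 filled points are red, and the grey points run from -0.43 to 0.18.

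The genes lie apart on the chromosome, except for DLAT, TIMM8B and SDHD. Other tested genes within 1 Mb of ACAT1, FDX1 and SLC37A4 had a median log2 fold change of 0.05 over 12 genes, 0.03 over 7 and 0.06 over 28. Around NDUFC2 it was -0.13 over 10 genes. Around DLAT, TIMM8B and SDHD it was -0.21 over 13 genes, 9 of them below 0, among them PLET1, which fell. PLET1 had only 58 counts over the 6 libraries. Of close neighbours, ALG8 of glycosylation, 7903 bp from NDUFC2, was at -0.38 ± 0.13, and THRSP, 2164 bp from NDUFC2, at -0.11 ± 0.56. TRAPPC4 of vesicle transport, 933 bp from SLC37A4, was at -0.28 ± 0.15, and RPS25, 5103 bp from SLC37A4, at 0.06 ± 0.16. PIH1D2, near DLAT, was at -0.53 ± 0.38, and P4HA3, near PGM2L1, at 0.32 ± 0.17. None of these passed in edgeR (adjusted p of 0.136 for ALG8 and 0.338 for TRAPPC4). NDUFA4, at 80637005 to 80644067, had 2 other tested genes within 1 Mb, both above 0. PGM2L1, at 8686976 to 8761721, had 26, with a median of 0.02, among them PLEKHB1 and RNF169, which passed in edgeR.

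Annotated gene span moved with the fold change over the chromosome. Of the 604 tested genes with a RefSeq position, those spanning 1.00 to 16.3 kb had a median log2 fold change of -0.04, those of 16.4 to 41.5 kb -0.04, those of 41.9 to 96.7 kb 0.07 and those of 98.3 kb or more 0.12. Spearman's rho across these genes, which are not independent, was 0.28. The 8 members below 0 spanned at most 25175 bp, and PGM2L1 spanned 74746 bp. PDK4, at 13179 bp, was above 0 although short. The 8 lay from -0.34 to -0.84. The part of gene span in the members' values was not tested.

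**Figure D4:**
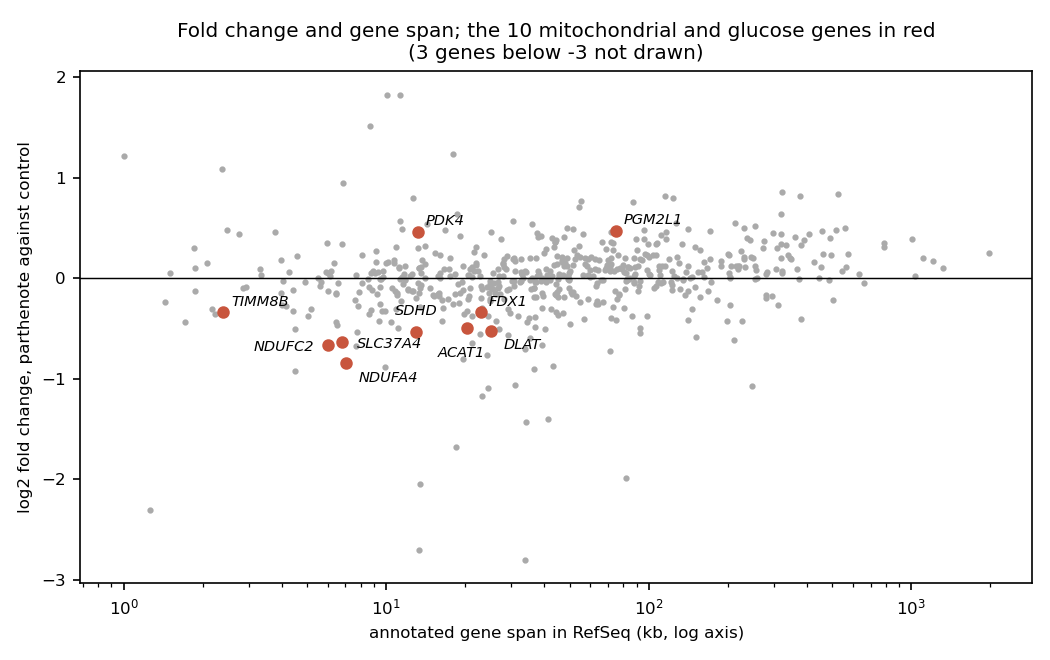
Log2 fold change of parthenotes against controls (vertical axis) against annotated gene span in kb (horizontal log axis) for 601 tested genes, with the 10 mitochondrial and glucose genes in red and 3 genes below -3 left out. Members below 0 lie at 25175 bp or less, and PGM2L1 lies among longer genes.

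Some markers of other tissues differed between the groups and some did not pass the test. Of the kidney tubule list, 2 of 13 genes were in the table and both fell: the channel gene KCNJ1 from 541 to 594 CPM in controls to 69.5 to 92.9 CPM in parthenotes, and the scaffold gene NHERF4 from 99.3 to 113 to 17.6 to 29.6 CPM. Of the 4 neural genes measured of 16, MAP6, FEZ1 and NRCAM rose and NCAM1 was at 0.33 ± 0.13 and did not pass. Their summed level was 7137 to 8376 CPM in controls and 9616 to 11393 CPM in parthenotes. Most of it was NCAM1, at 4797 to 6038 CPM in controls and 6342 to 7798 CPM in parthenotes. Of the red cell list 1 of 16 was measured, HBB, at 873 to 2065 CPM in controls and 102 to 575 CPM in parthenotes, with no overlap, which did not pass (adjusted p = 0.189). Of the liver and yolk sac list 3 of 16 were measured, of which APOC3 rose and APOA1 and APOA4 did not pass (adjusted p 0.834 and 0.780). Their summed level overlapped, at 29039 to 33808 CPM in controls and 26128 to 51368 CPM in parthenotes. Most of it was APOA1, at 27392 to 31691 CPM in controls and 22793 to 45978 CPM in parthenotes. MYOG, 1 of 14 skeletal muscle genes, was at 0.15 ± 0.08 and did not pass (adjusted p = 0.290). Of 17 heart genes 0 were in the table, so the heart list was not measured. Of the placental list 3 of 11 were measured, of which PEG10 and PLET1 fell. PEG10 is the paternally expressed gene used above to check the labels. PLET1 had 58 counts over the 6 libraries, at 12, 20 and 18 in the controls and 2, 5 and 1 in the parthenotes. PTGS2, the other, had 79.3 to 108 CPM in controls and 122 to 498 CPM in parthenotes, which did not pass (adjusted p = 0.144). Of the stress list 4 of 20 were measured, and ASNS rose, while HSPA8 was at -0.51 ± 0.16 (adjusted p = 0.125), HYOU1 at -0.12 ± 0.12 and ATF3 at 0.21 ± 0.37, and did not pass. The summed level of the 4 was lower in all parthenotes, at 25986 to 35224 CPM against 36767 to 45948 CPM. Most of that sum was HSPA8, at 19646 to 28218 CPM in parthenotes and 31453 to 40707 CPM in controls. The sum therefore does not describe the other genes of the list, of which ASNS went the other way. The part of cell type composition in the values of the 10 genes was not tested.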

How the data were processed

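RNA of 3 control and 3 parthenote embryos was made into libraries with a TruSeq v2 kit, per the labels' protocols. The submitters' processing notes name HISAT2 2.1.0, SAMtools 1.9 and the Sscrofa11.1 build. What counted the reads, and on which annotation, is not stated in the sources used. The authors deposited unnormalized counts per Ensembl gene for 1780 genes, which were used throughout. They also deposited a normalized signal per sample for 1190 genes; dividing by a factor per sample (0.916 to 1.05) gave whole reads, within 0.01 of a read, for 100% of values. These reads differed from the deposited counts in 177 to 277 of the genes per library, by up to 25 to 103 reads.

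Symbols were matched by gene ID to an Ensembl name table (779 genes) and positions by symbol to RefSeq's Sscrofa11.1 table, which gives no strand, so neighbours were named by distance alone. Columns were matched to samples through the names of the files listed per sample. Counts were filtered (filterByExpr, minimum count 10, minimum total 15), scaled with TMM and tested with edgeR 4.0.16 in R 4.3.3 (robust quasi-likelihood fit, Benjamini-Hochberg over 807 genes, threshold 0.05). The SE is the log2 fold change divided by the root of its F statistic. The biological coefficient of variation was 17.0%. The fit was also run on simulated counts with known changes and a single dispersion for all genes. Those counts held no shift of the libraries numbered 1, so they do not test the fit for it. Alternatives were other scalings and filters, DESeq2 1.42.0, limma-voom (limma 3.58.1), recovered reads, each library left out, the most abundant gene left out and a replicate block.

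The genes and lists were chosen with earlier results of these data known. Named were all 10 genes, from each pathway list every passing gene and the tested gene with the most reads, and neighbours within 1 kb of a member; a few others were named after their values were seen. A tested pathway gene that the counts include is not reported here. Titles give both groups the numbers 1 to 3 and no shared litter or day. Same-numbered samples deviated together (correlations of 0.365, 0.272 and 0.147), so the block treats them as pairs, a pairing taken from the data. Control 3 correlated as well with parthenote 2 (0.145) as with parthenote 3, so the pair numbered 3 is not told apart by this check.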

Additional observations from a re-analysis of the deposited data

How the results depend on the processing

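Of 170 values of the 10 genes under 17 alternatives, 130 stayed on their side of the threshold, 25 lost a call, 15 gained one and 0 changed sign. The number of the 10 genes that passed was 5, and 8 in DESeq2, where PDK4 (adjusted p = 0.0407), ACAT1 and SDHD also passed. It was 0 to 8 with a library left out: 2 without control 1, 0 without control 2, 1 each without control 3, parthenote 2 or parthenote 3, and 8 without parthenote 1. Without control 2 the lowest adjusted p in edgeR was 0.0521, and 9 had an unadjusted p under 0.05; the cause was not tested. Of the other pathway genes 0 passed, and 3 passed with the replicate block (among them DLD and SLC25A13), 3 in DESeq2 (DLD, PFKFB2 and SLC25A13), 2 without a filter on low counts (DLD and SLC25A13), 0 to 2 with a library left out and 4 without both libraries numbered 1. Over all genes, 42 passed, against 65 in DESeq2 and 76 without both libraries numbered 1. Of the 814 to 818 genes tested with a library left out, 42 passed without control 1 and 55 without parthenote 1, where 2 and 8 of the 10 did. Leaving out control 2 gave 17, control 3 gave 18, parthenote 2 gave 26 and parthenote 3 gave 22, where 0 or 1 of the 10 passed. The split of higher and lower calls was 13 to 29, and 5 to 27 with library totals as scaling. Recovered reads gave 42. Depth differed between the 10 genes, from 1702 counts for PDK4 to 20115 for NDUFA4 over the 6 libraries.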
